A study of Mus musculus with 12 samples.

Results

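The genes described here are those of microsomal electron transfer in mouse liver: Cyb5a, Cyb5b, Cyb5r3 and Pgrmc1, together with Por, the gene disrupted in the study. Members were the probe sets that the platform annotation assigns to exactly 1 gene symbol, if that symbol was one of the 5 genes. This rule gave 9 probe sets of 4 genes, out of 20380 single-symbol probe sets of 12393 genes: 1 for Cyb5a, 3 for Cyb5b, 4 for Cyb5r3 and 1 for Pgrmc1. No single-symbol probe set was assigned to Por, so Por was not analysed here and could not serve as a check of the genotype labels.

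Liver RNA was hybridised to 12 Affymetrix 430A arrays, in 4 groups of 3. POR-null mice (null for cytochrome P450 reductase) on the quercetin diet, POR-null mice on the control diet, wild-type mice on the quercetin diet and wild-type mice on the control diet formed the groups. Every array carried the pooled RNA of 3 mice. All mice were males labelled C57BL/6 and aged 6 to 8 weeks, and all ate a soya-free powdered diet for 14 days. For the last 24 h the diet of the quercetin groups contained this flavonol of plant foods at 6.2 g per kg (7 mg per mouse). The labels do not say in which cells the gene was disrupted or how closely the POR-null and wild-type colonies were related. Genotype and any difference between colonies therefore cannot be told apart.

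POR is a flavoprotein of the endoplasmic reticulum that takes electrons from NADPH and hands them to the microsomal cytochromes P450, to heme oxygenase and to squalene epoxidase. A parallel chain runs from NADH through the flavoprotein Cyb5r3 to Cyb5a, a small membrane heme protein. Cyb5a in turn reduces fatty acid desaturases and sterol-modifying enzymes, and it can give some P450s the second electron of their cycle. Cyb5b is the related cytochrome b5 of the outer mitochondrial membrane, where it serves the amidoxime reducing enzymes. Pgrmc1 is a heme-binding membrane protein with a cytochrome b5-like fold that binds several P450s. Mice without POR in any cell die as embryos, so adult null animals of this kind are usually made with a deletion limited to some tissues.

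The RefSeq start-site table used held no entry for Cyb5r3. Start-site sequences of Cyb5b and Pgrmc1 are shown, so that the promoters of a mitochondrial and a microsomal member can be set side by side. They cover 250 bases before to 50 bases after the start site, 300 in all, on build GRCm38.p6. The Cyb5b window is chr8:107150411-107150710 and the Pgrmc1 window chrX:36597943-36598242, both on the plus strand. Capitals mark matches, on either strand, to CCAAT, to the GC box GGGCGG or to the TATA box TATAAA.
Cyb5b: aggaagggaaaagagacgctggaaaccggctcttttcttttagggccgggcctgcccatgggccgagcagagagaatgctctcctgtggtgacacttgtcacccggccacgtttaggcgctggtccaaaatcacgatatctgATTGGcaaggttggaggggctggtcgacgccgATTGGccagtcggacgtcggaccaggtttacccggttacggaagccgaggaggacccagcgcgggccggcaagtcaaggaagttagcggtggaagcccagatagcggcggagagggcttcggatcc
Pgrmc1: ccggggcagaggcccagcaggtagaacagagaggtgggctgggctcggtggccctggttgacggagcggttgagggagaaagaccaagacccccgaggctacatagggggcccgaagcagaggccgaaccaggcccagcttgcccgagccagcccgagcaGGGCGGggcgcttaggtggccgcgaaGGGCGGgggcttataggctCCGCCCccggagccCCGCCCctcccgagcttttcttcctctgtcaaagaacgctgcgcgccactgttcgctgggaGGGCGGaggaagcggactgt
The Cyb5b window held 2 CCAAT matches, 0 GC boxes and 0 TATA boxes. The Pgrmc1 window held 5 GC boxes, 0 CCAAT matches and 0 TATA boxes. The motifs do not overlap one another in letters. Among 32851 start-site windows of the same length, 37.4% held CCAAT, 35.7% the GC box and 13.6% the TATA box. Each of the shown windows had 24 CG dinucleotides, against a median of 7.0 over all windows. So the windows share a high CG content and the lack of the searched TATA letters, but hold different other motifs. The arrays measure RNA and do not bear on what binds there.

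Values are log2 intensities as deposited, so a difference of 1 is a doubling, and differences between groups are taken within a probe set. Levels of different probe sets, or a level and the median of all values, are set side by side only as a rough guide to brightness. Arrays of a group correlated at r = 0.988 to 0.993, and array medians lay between 5.93 and 5.99. The liver label was set beside 8 measured hepatocyte markers of 10 listed, which had mean levels of 10.9 (Hnf4a) to 13.6 (Apoa1). For each of them at least 98.4% of all probe sets were dimmer, and the median of all values was 5.96. Wild-type control array 1 stood apart from the other arrays of its group on the second principal component of all probe sets (-12.1 against 17.7 and 16.2). It lay there among the wild-type quercetin arrays (-16.9, -8.67 and -8.14). On the first component it scored -12.7, again among the wild-type quercetin arrays (-11.8, -13.4 and -6.11), against -20.9 and -23.7 in its own group. POR-null control array 3 scored 0.11 on the first component, against 19.3 and 7.88 for the other arrays of its group. The closest wild-type array scored -6.11. Differences were tested with limma over 22626 probe sets, with Benjamini-Hochberg adjustment and a threshold of 0.05. All are given as log2 difference ± SE.

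Cyb5a, the electron carrier of the endoplasmic reticulum, had the lowest adjusted p of the 9 probe sets for the averaged genotype contrast, and it did not pass the test. Its probe set (1416727_a_at) stood at 12.14, 12.06 and 12.21 in the POR-null quercetin arrays and at 12.37, 12.04 and 12.09 in the POR-null control arrays. It read 11.99, 12.02 and 12.07 in the wild-type quercetin arrays and 11.88, 11.74 and 11.89 in the wild-type control arrays. On the control diet all POR-null arrays were above all wild-type arrays, while on the quercetin diet the genotypes overlapped. POR-null exceeded wild type by 0.33 ± 0.09 on the control diet (1.26-fold, limma adjusted p = 0.0995, 3 arrays per group). On the quercetin diet the difference was 0.11 ± 0.09 (limma adjusted p = 0.591). Averaged over diets it was 0.22 ± 0.07, with a 95% confidence interval of 0.08 to 0.36 and a limma adjusted p of 0.0556. Leaving out POR-null control array 2 or 3 brought this adjusted p to 0.0418 and 0.0438. Without POR-null control array 1, the highest array of all, the averaged difference was 0.17 (limma adjusted p = 0.122).

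The order of the group means of Cyb5a was 12.17 ± 0.18 in POR-null control, 12.14 ± 0.07 in POR-null quercetin, 12.03 ± 0.04 in wild-type quercetin and 11.84 ± 0.08 in wild-type control (SD, n = 3). Wild-type control was the group at the low end. With quercetin the highest wild-type array (12.07) lay above the lowest POR-null array (12.06). All 3 wild-type control arrays (at most 11.89) lay below the other 9 arrays (at least 11.99), a pattern found in 1.51% of all probe sets. In wild type, quercetin exceeded control by 0.19 ± 0.09 (limma adjusted p = 0.597), and in POR-null it differed from control by -0.03 ± 0.09 (limma adjusted p = 0.963). These responses differed by -0.22 ± 0.13, POR-null minus wild type, which did not pass as an interaction (limma adjusted p = 0.828). The genotype and diet contrasts share the wild-type control arrays.

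**Figure D1:**
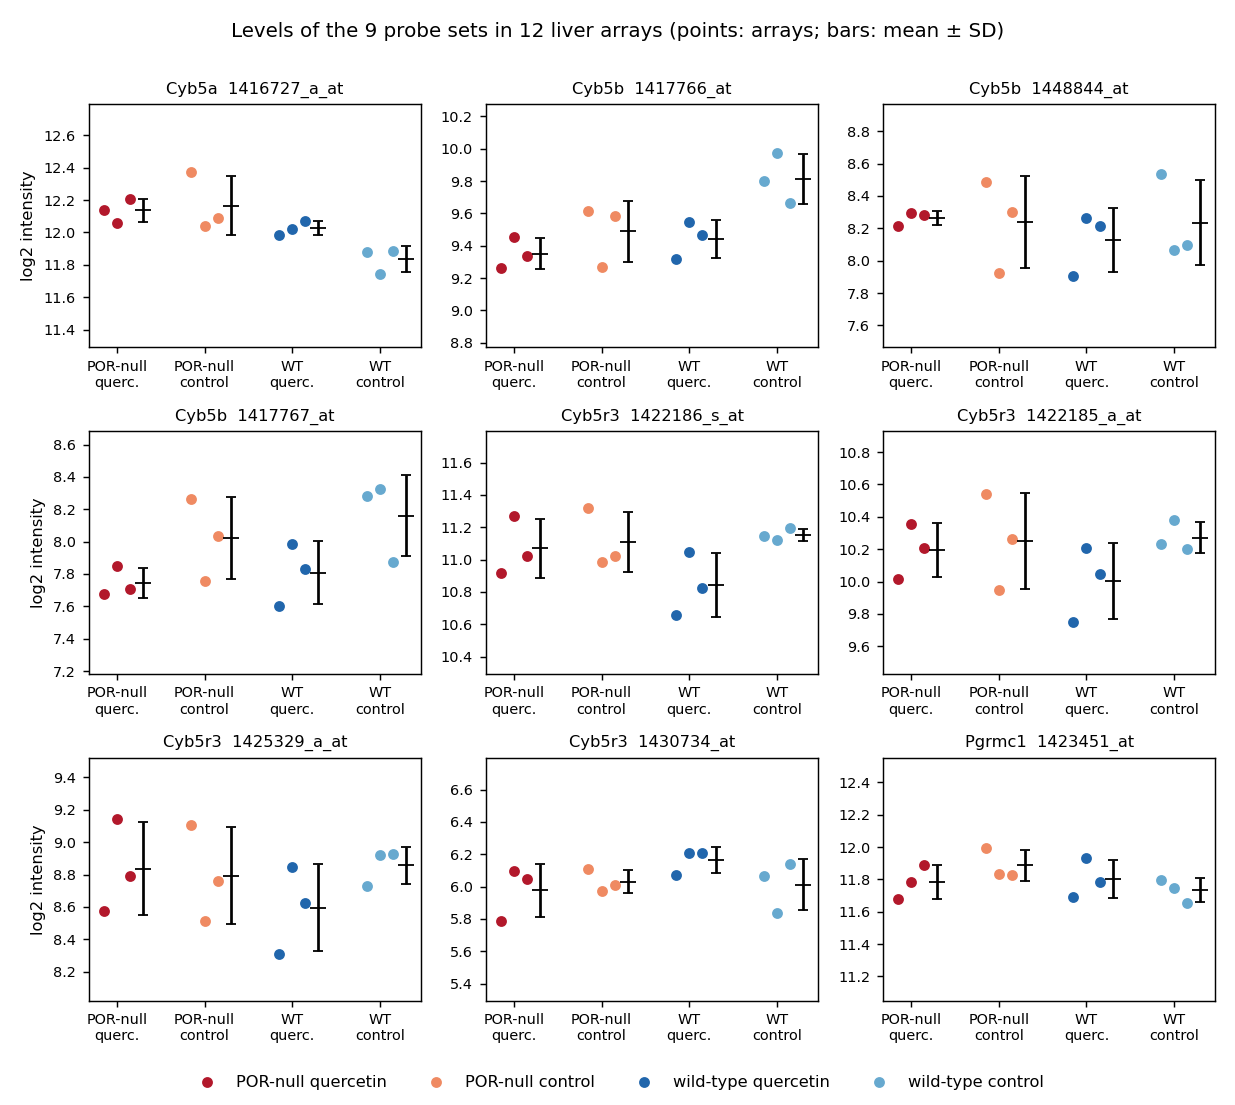
Log2 intensity (vertical axis) of the 9 probe sets in each array, by group (horizontal axis), with the group mean and SD beside the points. Every panel spans the same number of log2 units. For Cyb5a the wild-type control points lie below all others and for Cyb5b 1417766_at above all others, while in the panels of Cyb5r3 the genotypes overlap on each diet.

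Cyb5b, the mitochondrial outer membrane form, was measured by 3 probe sets, of which 1448844_at followed the others less closely (Pearson r = 0.34 and 0.55). The brightest, 1417766_at, stood at 9.26, 9.45 and 9.34 in POR-null quercetin and 9.61, 9.27 and 9.58 in POR-null control arrays. It read 9.32, 9.55 and 9.47 in wild-type quercetin and 9.80, 9.97 and 9.66 in wild-type control arrays. Here wild-type control was the group at the high end: its 3 arrays (at least 9.66) lay above the other 9 (at most 9.61), as in 1.76% of all probe sets. POR-null differed from wild type by -0.32 ± 0.11 on the control diet (limma adjusted p = 0.172) and by -0.09 ± 0.11 on the quercetin diet (limma adjusted p = 0.729). Quercetin differed from control by -0.37 ± 0.11 in wild type (limma adjusted p = 0.411) and by -0.14 ± 0.11 in POR-null (limma adjusted p = 0.827). None of these differences passed. Averaged over diets, the genotype difference was -0.21 ± 0.08 (limma adjusted p = 0.128), and it passed after quantile normalization of the arrays, at -0.30 (limma adjusted p = 0.0248).

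The probe set 1417767_at of Cyb5b followed 1417766_at across the 12 arrays (Pearson r = 0.89, given as a description). Its group means were 7.74 ± 0.09 in POR-null quercetin, 8.02 ± 0.25 in POR-null control, 7.81 ± 0.19 in wild-type quercetin and 8.16 ± 0.25 in wild-type control (SD, n = 3). With this probe set too, quercetin arrays averaged lower than control arrays in wild type (-0.35 ± 0.15, limma adjusted p = 0.547) and in POR-null (-0.28 ± 0.15, limma adjusted p = 0.754), and neither passed. The other probe set, 1448844_at, was at 8.27 ± 0.04, 8.24 ± 0.28, 8.13 ± 0.20 and 8.23 ± 0.26 in POR-null quercetin, POR-null control, wild-type quercetin and wild-type control (SD, n = 3). Its differences lay between -0.11 (wild type, quercetin minus control) and 0.14 (POR-null minus wild type, quercetin diet), and its r with 1417766_at was 0.34. The genotype difference of 1417766_at minus that of 1448844_at was -0.28. In an exact two-sided permutation of genotype within diet (400 arrangements, smallest possible p of 0.005) this had p = 0.015, and an adjusted p of 0.135 over the 9 pairs of probe sets of 1 gene. No pair passed with all arrays, and without wild-type control array 1, 1 of the 9 did. Which of the probe sets reports Cyb5b better was not tested.

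Cyb5r3, the NADH-dependent reductase that feeds Cyb5a, showed no genotype or diet difference that passed. Its brightest probe set, 1422186_s_at, stood at 10.92, 11.27 and 11.02 in POR-null quercetin and 11.32, 10.99 and 11.02 in POR-null control arrays. It read 10.66, 11.05 and 10.83 in wild-type quercetin and 11.15, 11.12 and 11.19 in wild-type control arrays. In wild type all quercetin arrays were below all control arrays, whereas in POR-null the diets overlapped. Quercetin minus control was -0.31 ± 0.12 in wild type (limma adjusted p = 0.52) and -0.04 ± 0.12 in POR-null (limma adjusted p = 0.964), with an interaction of 0.27 ± 0.17 (limma adjusted p = 0.838). POR-null minus wild type was -0.04 ± 0.12 on the control diet (limma adjusted p = 0.897) and 0.23 ± 0.12 on the quercetin diet (limma adjusted p = 0.356).

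A pair of further Cyb5r3 probe sets, 1422185_a_at and 1425329_a_at, followed 1422186_s_at over the 12 arrays (Pearson r = 0.89 and 0.92). In wild type their quercetin minus control differences were -0.27 ± 0.15 and -0.26 ± 0.17 (limma adjusted p = 0.645 and 0.69). Within the POR-null control group, all 3 of these probe sets were highest in array 1 and lowest in array 2. For example, 1422185_a_at read 10.54 and 9.95 there, while for 1422186_s_at arrays 2 and 3 were close (10.99 and 11.02). The fourth probe set, 1430734_at, was dim, with a mean of 6.05 near the median of all values. It did not follow the others (r = 0.09 with 1422186_s_at) and averaged 5.98 ± 0.16, 6.03 ± 0.07, 6.16 ± 0.08 and 6.01 ± 0.16 in POR-null quercetin, POR-null control, wild-type quercetin and wild-type control (SD, n = 3). Its differences lay between -0.19 (POR-null minus wild type, quercetin diet) and 0.15 (quercetin minus control, wild type).

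Pgrmc1, the heme-binding partner of P450s, had the narrowest spread of the 9 probe sets: its 12 arrays spanned 0.34 log2 units (1.27-fold), against 0.42 to 0.83 for the others. Probe set 1423451_at stood at 11.68, 11.78 and 11.89 in POR-null quercetin and 11.996, 11.836 and 11.825 in POR-null control arrays. It read 11.69, 11.93 and 11.78 in wild-type quercetin and 11.80, 11.75 and 11.65 in wild-type control arrays. On the control diet the POR-null arrays lay just above the wild-type arrays (at least 11.825 against at most 11.799). The difference there was 0.15 ± 0.09 (limma adjusted p = 0.438), with a 95% confidence interval of -0.04 to 0.34. On the quercetin diet it was -0.02 ± 0.09 (limma adjusted p = 0.939). Quercetin minus control was 0.07 ± 0.09 in wild type (limma adjusted p = 0.863) and -0.10 ± 0.09 in POR-null (limma adjusted p = 0.836).

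By limma, 0 of the 9 member probe sets passed in any of the 6 contrasts. Over all probe sets 1.16% passed for POR-null minus wild type on the control diet, 2.33% on the quercetin diet and 7.58% averaged over diets. Of all probe sets, 1.75% were higher and 0.579% lower in POR-null on the quercetin diet, and 4.88% higher and 2.7% lower averaged over diets. For quercetin in wild type, quercetin in POR-null and their interaction 0.0% passed. At an unadjusted p under 0.05 the genotype contrast on the control diet held 2 of the 9 (15.8% of all probe sets), that on the quercetin diet 0 (17.0%) and the average 2 (23.0%). By the same count, quercetin in wild type held 3 (8.58%), quercetin in POR-null 0 (6.99%) and the interaction 0 (6.17%). Groups did not overlap for 3 of 9 probe sets in the control-diet genotype contrast (17.3% of all), 2 of them higher in POR-null (8.04%) and 1 lower (9.24%). On the quercetin diet this was so for 0 of 9 (25.0%). With quercetin in wild type it was so for 3 (11.8%), 1 of them higher (5.67%) and 2 lower (6.09%). With quercetin in POR-null it was so for 0 (14.1%), against 6.62% higher and 7.52% lower. Over the 9 probe sets the differences between genotypes ran from -0.32 to 0.33 on the control diet and from -0.19 to 0.24 on the quercetin diet. Their 95% confidence intervals reached -0.56 and 0.60 at the extremes.

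**Figure D2:**
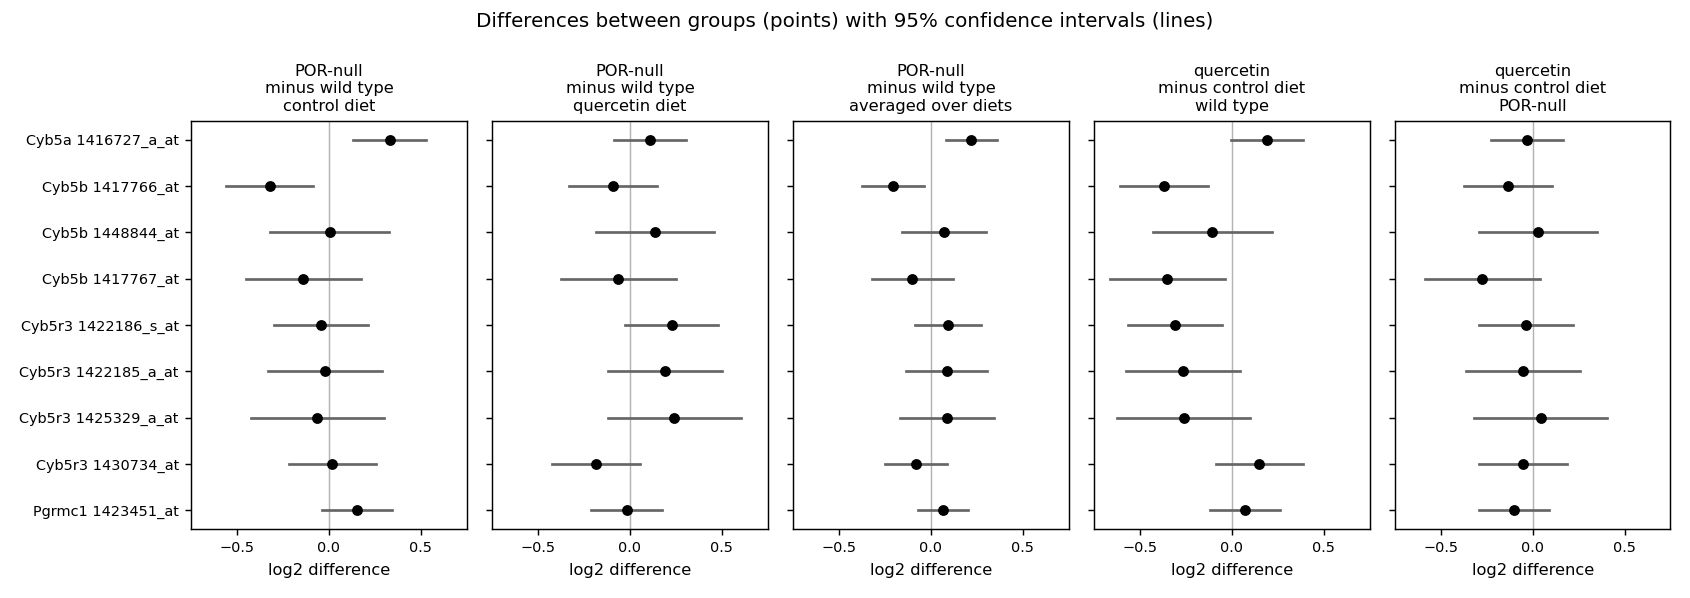
Log2 difference (horizontal axis, points) with its 95% confidence interval (lines) for the 9 probe sets (vertical axis) in 5 contrasts. Before adjustment over all probe sets, intervals leave out 0 for Cyb5a (0.33) and Cyb5b 1417766_at (-0.32) on the control diet. The same probe sets do so averaged over diets (0.22 and -0.21), as do 3 probe sets with quercetin in wild type.

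Genes whose levels most resembled each member over the 12 arrays were taken from 7394 other genes with a mean above the median of all values, by Pearson r alone. For Cyb5a they were Cnih1 (r = 0.91), Tprgl (0.91) and Caprin1 (0.91), and for Cyb5b (1417766_at) Slc22a30 (0.89), Cox6a2 (0.86) and Pik3ap1 (0.86). Cyb5r3 (1422186_s_at) was most like Aldoc (0.87), Trappc6a (0.82) and Asah1 (0.80), and Pgrmc1 most like Marcksl1 (0.88), Fam91a1 (0.86) and Col14a1 (0.86). None of these 12 genes was named for more than 1 member.

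Enzymes that take electrons from cytochrome b5 were described with the same fit. Of 11 measured genes in the list of cytochrome b5 electron acceptors (14 listed), 4 rose in POR-null liver averaged over diets and 0 fell, with a median of 0.11. Over all 12393 genes 5.08% rose, 2.86% fell and the median was -0.02. Scd1, the stearoyl-CoA desaturase of liver, averaged 11.87 ± 0.15 in POR-null quercetin, 11.96 ± 0.25 in POR-null control, 10.60 ± 0.49 in wild-type quercetin and 11.24 ± 0.38 in wild-type control (SD, n = 3). It rose by 0.99 ± 0.15 averaged over diets (1.99-fold, limma adjusted p = 0.00166) and by 1.27 ± 0.22 on the quercetin diet (limma adjusted p = 0.00859). On the control diet Scd1 differed by 0.72 ± 0.22, which did not pass (limma adjusted p = 0.126). Without POR-null quercetin array 1 the quercetin-diet call of Scd1 ended, at an adjusted p of 0.0503 by limma. Degs1, the dihydroceramide desaturase, rose by 0.32 ± 0.07 (limma adjusted p = 0.00891). Scd2, another stearoyl-CoA desaturase, rose by 0.35 ± 0.10 (limma adjusted p = 0.0482). That call ended without any one of 9 of the 12 arrays (limma adjusted p up to 0.123), and of the other Scd2 probe sets 1415822_at differed by 0.66 (limma adjusted p = 0.00885) and 1415824_at by 0.00. Hacd3, which also rose, by 0.26 ± 0.06 (limma adjusted p = 0.018), is a dehydratase of fatty acid elongation and not itself known to take electrons from cytochrome b5. Its call ended without wild-type quercetin array 2 or POR-null control array 1 (limma adjusted p up to 0.0557) and after quantile normalization (limma adjusted p = 0.124). The desaturases Fads1 and Fads2 differed by 0.06 ± 0.12 and 0.11 ± 0.10 and did not pass, nor did the sterol methyl oxidase Msmo1 (0.66 ± 0.34).

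Among 8 measured genes of other cytochrome b5 domain proteins (10 listed), 2 rose and 0 fell averaged over diets, with a median of 0.08. Of all genes 5.08% rose and 2.86% fell. Suox, the sulfite oxidase of the mitochondrial intermembrane space, averaged 9.28 ± 0.03 in POR-null quercetin, 9.10 ± 0.14 in POR-null control, 8.91 ± 0.18 in wild-type quercetin and 8.49 ± 0.27 in wild-type control (SD, n = 3). It rose by 0.49 ± 0.09 (1.40-fold, limma adjusted p = 0.00511). On the control diet alone Suox rose by 0.61 ± 0.13 (limma adjusted p = 0.0403), a call that ended without any one of 8 of the 12 arrays (limma adjusted p up to 0.185). On the quercetin diet it differed by 0.37 ± 0.13 and did not pass (limma adjusted p = 0.16). Nenf, a secreted relative of Pgrmc1, rose by 0.36 ± 0.08 (limma adjusted p = 0.0169). Nenf differed by 0.24 ± 0.12 on the control diet and did not pass (limma adjusted p = 0.346). Its levels averaged 5.86 in POR-null and 5.50 in wild type, below the median of all values. Pgrmc2, the nearest relative of Pgrmc1, differed by 0.06 ± 0.07 and did not pass.

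The mitochondrial P450 system uses its own carriers and not POR. Averaged over diets 5.08% of all genes rose and 2.86% fell. In this system 1 of 5 measured genes (9 listed) rose and 0 fell, with a median of 0.05. This was Fdx1, the ferredoxin that reduces mitochondrial P450s. It stood at 10.84, 11.11 and 10.94 in POR-null quercetin and 11.04, 10.70 and 10.82 in POR-null control arrays. It read 10.09, 10.38 and 10.40 in wild-type quercetin and 10.56, 10.47 and 10.37 in wild-type control arrays. On the control diet all POR-null arrays were above all wild-type arrays, as in 8.04% of all probe sets. The same held on the quercetin diet, as in 11.9% of all probe sets. Fdx1 rose by 0.53 ± 0.08 averaged over diets (1.44-fold, limma adjusted p = 0.00144) and by 0.67 ± 0.11 on the quercetin diet (limma adjusted p = 0.0082). On the control diet it differed by 0.39 ± 0.11, which did not pass (limma adjusted p = 0.117). The averaged call held without each array in turn (limma adjusted p up to 0.00545). The P450 that it serves in bile acid synthesis, Cyp27a1, differed by -0.01 ± 0.06.

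Other flavoprotein reductases had 1 of 9 measured genes higher and 0 lower averaged over diets (11 listed, median 0.02). Of all genes 5.08% were higher and 2.86% lower. Nqo2, a quinone reductase, rose by 0.43 ± 0.08 (limma adjusted p = 0.0047), with 0.49 ± 0.11 on the quercetin diet (limma adjusted p = 0.0345) and 0.37 ± 0.11, not passing, on the control diet (limma adjusted p = 0.125). The quercetin-diet call of Nqo2 ended without any one of 5 arrays (limma adjusted p up to 0.135). It also ended after quantile normalization and with the replicate block (limma adjusted p = 0.059 and 0.0538). The further cytochrome b5 reductases did not pass: Cyb5r1 differed by 0.02 ± 0.08, Cyb5r4 by 0.12 ± 0.07 and Cyb5rl by -0.27 ± 0.12. Among genes of NADPH supply, 1 of 8 (9 listed) rose and 0 fell (5.08% and 2.86% of all genes), with a median of 0.15. Pgd, the phosphogluconate dehydrogenase of the pentose phosphate pathway, rose by 0.72 ± 0.14 averaged over diets (limma adjusted p = 0.00648). Its levels were 7.81 ± 0.11 in POR-null quercetin, 7.42 ± 0.53 in POR-null control, 6.64 ± 0.07 in wild-type quercetin and 7.16 ± 0.26 in wild-type control (SD, n = 3). It rose by 1.17 ± 0.20 on the quercetin diet (limma adjusted p = 0.0082), whereas on the control diet it differed by 0.26 ± 0.20 and did not pass (limma adjusted p = 0.562). The difference between these, 0.91 ± 0.28, did not pass as an interaction (limma adjusted p = 0.798). The other 3 Pgd probe sets gave averaged differences of 0.50 to 0.71.

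The amidoxime reducing enzymes, which use Cyb5b, did not pass in the averaged contrast: Mtarc2 differed by 0.14 ± 0.06 and Mtarc1 by -0.03 ± 0.10 (2 measured of 4 listed, counting older symbols). Of 4 measured genes of flavin cofactor supply (6 listed) 0 passed by limma, with Slc52a3, a riboflavin transporter, at -0.20 ± 0.09 and Enpp3 at 0.10 ± 0.09. The same was true of 4 flavin monooxygenases (5 listed), which oxidise drugs without POR. Among them Fmo4 differed by 0.22 ± 0.08 (limma adjusted p = 0.108) and Fmo1 by 0.12 ± 0.08. Of all genes 7.94% passed in the averaged contrast, so counts of 0 in lists this short do not set these genes apart.

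The acceptors of POR itself included the largest differences among the listed genes. Of 25 measured drug-metabolising P450s (29 listed) 9 rose and 1 fell averaged over diets, with a median of 0.23. Of all genes 5.08% rose and 2.86% fell. Cyp2b10 rose by 4.36 ± 0.28 (limma adjusted p = 1.34e-06), Cyp3a13 by 0.50 ± 0.07, Cyp3a11 by 0.37 ± 0.05 and Cyp2c55 by 1.79 ± 0.31. Cyp2d26 fell by 0.46 on the log2 scale. Cyp2c55 spread widely in the POR-null control arrays (9.85, 7.46 and 7.57). Its quercetin-diet call ended without any one of 6 arrays (limma adjusted p up to 0.104). The control-diet and quercetin-diet calls ended without any one of 9 and 6 arrays for Cyp3a11, and of 4 and 5 for Cyp3a13. The averaged calls of these 3 genes held without each array in turn. For Cyp2d26 the difference was -0.65 ± 0.10 on the quercetin diet (limma adjusted p = 0.00568) and -0.27 ± 0.10, not passing, on the control diet (limma adjusted p = 0.205). Of 12 measured other acceptors of POR (13 listed) 3 rose and 1 fell, with a median of 0.16. The sterol hydroxylases Cyp7a1 and Cyp8b1 rose by 2.27 ± 0.19 and 1.12 ± 0.13, the retinoic acid hydroxylase Cyp26a1 by 0.83 ± 0.13, and Cyp4v3 fell by 0.37 on the log2 scale. Cyp26a1 and Cyp4v3 passed on the quercetin diet and not on the control diet. Cyp26a1 differed by 1.35 ± 0.18 on the quercetin diet (limma adjusted p = 0.00213) and by 0.31 ± 0.18 on the control diet (limma adjusted p = 0.432). Cyp4v3 differed by -0.61 ± 0.10 on the quercetin diet (limma adjusted p = 0.00785) and by -0.13 ± 0.10 on the control diet (limma adjusted p = 0.571). Neither passed as an interaction (limma adjusted p = 0.671 for Cyp26a1 and 0.798 for Cyp4v3). Heme oxygenase genes, whose enzymes also depend on POR, did not pass: Hmox1 differed by 0.03 ± 0.17 and Hmox2 by 0.12 ± 0.07. The same held for squalene epoxidase (Sqle, 0.21 ± 0.31) and for Cyp51 (0.25 ± 0.28).

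**Figure D3:**
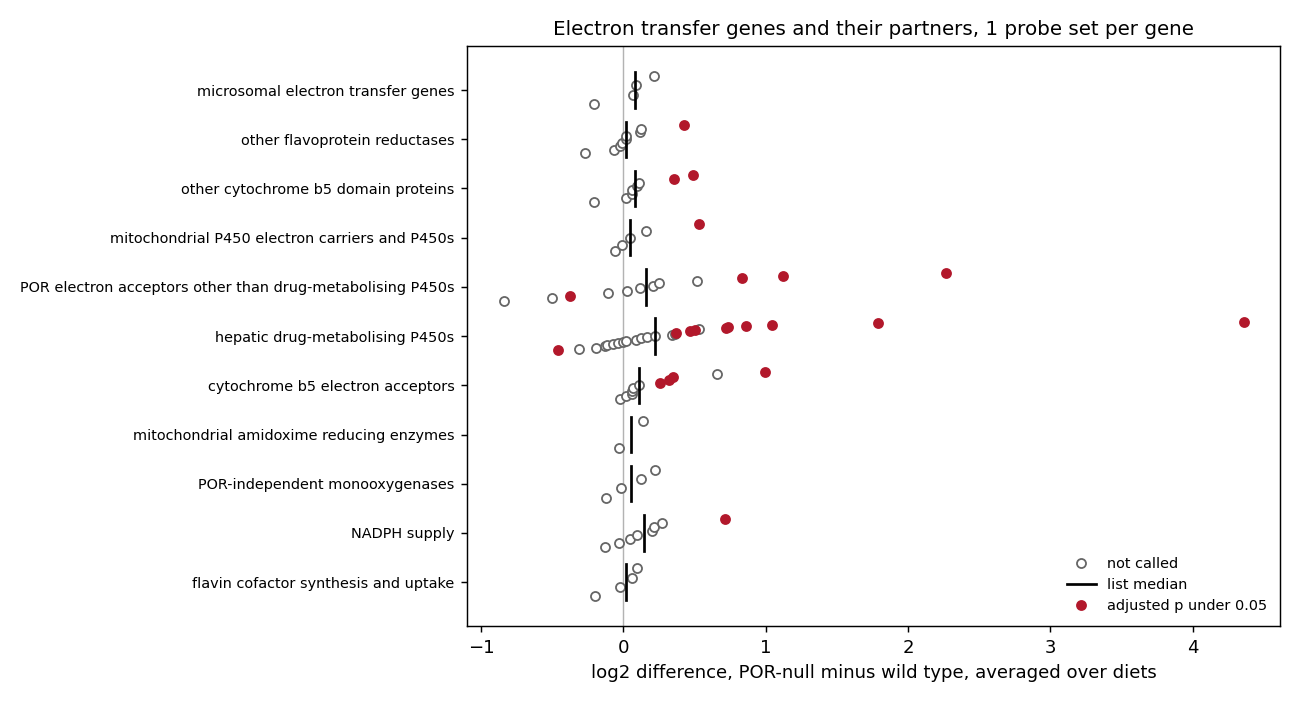
Log2 difference between POR-null and wild type averaged over diets (horizontal axis) for each measured gene of 11 lists (vertical axis), 1 probe set per gene. Filled points passed at an adjusted p under 0.05, open points did not, and black bars are list medians. The 4 microsomal electron transfer genes lie between -0.21 and 0.22, and Cyp2b10 lies farthest to the right at 4.36.

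Across the 10 lists other than the members, 85 genes were measured. For POR-null minus wild type, 6 rose and 0 fell on the control diet (7.06% of them, against 1.24% of all genes), and 13 rose and 2 fell on the quercetin diet (17.6% against 2.49%, with 1.86% of all genes higher and 0.629% lower). Averaged over diets 21 rose and 2 fell (27.1% against 7.94%). The control-diet count became 11 without POR-null control array 3 and 9 without wild-type control array 1. It became 3 without any one of the other control-diet arrays. The quercetin-diet count became 9 without wild-type quercetin array 1, and 8 without wild-type quercetin array 2 or POR-null quercetin array 1. Averaged over diets 25 passed without POR-null control array 3. The lists were chosen with earlier results of these data known, so these shares are a description. For quercetin in either genotype and for the interaction, 0 of the 85 passed by limma, as did 0.0% of all genes. Without wild-type control array 1, 3 of the 85 passed for quercetin in wild type. Shares of all genes with an array left out are not given here. The counts with an array left out therefore do not show whether the lists moved more than all genes did.

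Markers of other cells and of RNA quality were set beside these differences. Averaged over diets, 5.08% of all genes rose in POR-null and 2.86% fell. Of 10 macrophage and Kupffer cell markers, all measured, 3 rose in POR-null averaged over diets, Mpeg1 by 0.90 ± 0.14, Cd5l by 0.70 ± 0.19 and C1qa by 0.39 ± 0.11, and 0 fell. Their mean level relative to all arrays ran from 0.11 to 0.34 in POR-null quercetin, from -0.02 to 0.35 in POR-null control, from -0.29 to 0.47 in wild-type quercetin and from -0.50 to -0.02 in wild-type control. Among the macrophage markers that did not pass, Marco (-0.43 ± 0.21) and Adgre1 (-0.05 ± 0.10) averaged lower in POR-null and the rest higher. Of 8 measured hepatocyte markers 2 fell in POR-null, with differences of -0.31 ± 0.07 (Hnf4a) and -0.36 ± 0.10 (Pck1), and 0 rose. Their mean level relative to all arrays ran from -0.21 to -0.04 in POR-null quercetin, from -0.12 to 0.06 in POR-null control, from 0.05 to 0.09 in wild-type quercetin and from 0.04 to 0.09 in wild-type control. Among the hepatocyte markers that did not pass, Cps1 averaged higher in POR-null (0.16 ± 0.08) and the rest lower. Exocrine pancreas markers (7 measured of 8) spread widely, up to 2.24 in 1 POR-null quercetin array, and 0 of them passed. Of the markers of endothelial cells (8 of 8 measured), stellate cells and fibroblasts (8 of 8), cholangiocytes (4 of 6), lymphocytes (5 of 6) and red blood cells (3 of 5), 0 passed by limma. In whole liver, fewer cells of a type and less RNA per cell cannot be told apart. The 3′ minus 5′ difference of the transferrin receptor control, a sign of RNA integrity, averaged 1.28 in POR-null and 1.11 in wild-type arrays, and that of beta-actin 0.94 in POR-null and 0.88 in wild-type arrays. The part of these in the differences above was not tested.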

How the data were processed

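The deposited table holds log2 intensities of 22690 probe sets, as their range from 2.57 to 14.2 shows. Per the submitters' processing notes the tools were MAS5 and RMA, with no version or role, and how the authors corrected background and normalized is not given in the sources used here. Groups and pool numbers came from the sample titles. Leaving out 64 AFFX control probe sets, 22626 entered limma (version 3.58.1, R version 4.3.3): 1 mean per group over all 12 arrays, variances moderated with an intensity trend, two-sided tests, Benjamini-Hochberg adjustment over all of them, at an adjusted p of 0.05. No further normalization was applied. Over all probe sets the 95% confidence interval of a control-diet genotype difference reached a median of 0.24 to either side, a precision limited by the number of arrays. Since each array held a pool, p-values describe variation among pools rather than among mice.

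Symbols were those of the platform annotation, matched by gene ID to the GRCm38.p6 RefSeq table for 20351 of 20380 single-symbol probe sets, with 0 changed. Probe sets with several symbols (691) or none (1555) were tested but not named. Probe sets ending in _s_at, _a_at or _x_at can detect more than 1 transcript. In lists a gene is its probe set with the highest mean. Named list genes were those called (the 5 with the lowest p where more), otherwise the 2 with the lowest p, and any further list gene was picked with its value known. The members, lists and cell type markers were chosen with earlier results of these data known. Deviations of same-numbered arrays from their group means correlated at -0.18 to 0.24, and those of arrays of other numbers at -0.22 to 0.22. Between arrays numbered 1 all these correlations were above zero (0.04 to 0.16). They do not settle whether pool numbers pair the arrays, so the fit with the pool number as a block is an alternative. The fit was tested on simulated data.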

Additional observations from a re-analysis of the deposited data

How the results depend on the processing

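The alternatives were a filter on the 40% dimmest probe sets, quantile normalization, a variance prior estimated without the trend or robustly, weighting of arrays, the replicate block, only the groups compared, probe sets averaged per gene and each array left out. The count of member probe sets called averaged over diets became 1 in place of 0 with the filter, the robust prior and array weights (Cyb5a, limma adjusted p = 0.0369, 0.0462 and 0.0454) and 1 with quantile normalization (Cyb5b). It was 0 to 1 with an array left out, and all other counts of member probe sets called stayed at 0. With the replicate block 0 member probe sets passed in any contrast, and 5, 12 and 22 list genes passed in the genotype contrasts (control diet, quercetin diet and averaged). With the groups compared alone, 2 list genes passed on the control diet in place of 6. With an array left out, list genes passing were 3 to 11 on the control diet, 8 to 17 on the quercetin diet, 20 to 25 averaged, 0 to 3 for quercetin in wild type and 0 for quercetin in POR-null and the interaction. The 9 probe set pairs held 0 to 1 that passed, the 1 without wild-type control array 1. Shares of all probe sets or genes passing under the alternatives are not given here. Whether the members and lists moved more than all probe sets did is therefore not shown. No Por probe set was analysed, so its planned comparison was not run.

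Of 1032 differences of member probe sets under the alternatives, 36 changed sign, none past the threshold, and the main value was at most 0.13 in size. Quantile normalization gave -0.028 (Cyb5b 1448844_at, control-diet genotype contrast), -0.020 (the same probe set, quercetin in POR-null), -0.022 (Cyb5r3 1422185_a_at, averaged genotype contrast), -0.024 (Cyb5r3 1425329_a_at, quercetin in POR-null) and -0.014 (Pgrmc1, averaged genotype contrast). Array weights gave -0.014 for Cyb5b 1448844_at on the control diet. The cause was not tested.

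With an array left out, signs changed within these ranges. For POR-null minus wild type on the control diet they were -0.12 to 0.16 (Cyb5b 1448844_at), -0.15 to 0.017 (Cyb5r3 1422186_s_at), -0.17 to 0.13 (1422185_a_at), -0.22 to 0.076 (1425329_a_at) and -0.071 to 0.082 (1430734_at). On the quercetin diet they were -0.17 to 0.027 (Cyb5b 1417767_at) and -0.073 to 0.046 (Pgrmc1). For quercetin in POR-null they were -0.095 to 0.073 (Cyb5a), -0.13 to 0.15 (Cyb5b 1448844_at), -0.14 to 0.066 (Cyb5r3 1422186_s_at), -0.21 to 0.091 (1422185_a_at), -0.11 to 0.20 (1425329_a_at) and -0.11 to 0.040 (1430734_at). For quercetin in wild type the range was -0.19 to 0.045 (Cyb5b 1448844_at), and for the interaction -0.021 to 0.26 (1448844_at) and -0.054 to 0.22 (1417767_at).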
